A study of Mus musculus with 3 samples.

Results

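RNA-seq of E14 mouse ESCs that had been given tamoxifen together with doxycycline (the library labelled DoxTam) was compared with RNA-seq of wild-type E14 ESCs (WT). The comparison covered 12384 of the 23953 genes in the deposited tables, chosen as those that reached 1 FPKM (fragments per kilobase of transcript, relative to all mapped fragments) in at least 1 of the 2 libraries. The DoxTam cells were *Oct4* DE (−/−), a clonally expanded line in which both alleles of the *Oct4* distal enhancer (DE) carry loxP sites, and were treated for 48 h. The line also holds lentiviral rtTA, a TRE-driven mouse *Oct4* transgene and CreER(T2), so that tamoxifen lets Cre cut out the floxed enhancer segment and doxycycline induces the transgene. The labels list the doxycycline-inducible and the tamoxifen-inducible construct for every library, WT included, and whether WT was the parental line or the floxed line without drugs is not stated in the labels or methods. All cells were grown in serum with LIF. A further library, of *Oct4* DE (−/−) cells given tamoxifen alone for 48 h (labelled Tam), is set beside these values. It shares WT with them, so the 2 comparisons are not independent. Each condition had 1 library, so no difference has a replicate check, and none was tested.

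OCT4 is the POU factor that, with SOX2 and NANOG, holds ESCs in the pluripotent state, and its own enhancer is read by these same factors. Doxycycline is more than a switch for a transgene. As a tetracycline it binds the bacterial type of ribosome and can slow protein synthesis in mitochondria, whose ribosomes make core subunits of the respiratory chain from mitochondrial DNA while all other subunits, and the ribosomal proteins themselves, come from nuclear genes. Cells under mitochondrial stress are known to turn on the integrated stress response, in which the transcription factor ATF4 raises genes for amino acid synthesis, amino acid transport and tRNA synthetases. The comparison of DoxTam with WT joins the labelled deletion, both drugs, any transgenic *Oct4* and clonal differences, and these cannot be told apart in a pair of libraries.

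A fold is given throughout as log2((FPKM + 1)/(FPKM + 1)) of DoxTam over WT, a scale on which genes of low level show less than their full change, and a gene is called higher or lower when it reached 1.5-fold (0.585 on the log2 scale). By this rule 510 genes (4.12% of the 12384) were higher in DoxTam and 716 (5.78%) were lower, with a median fold of 0.00 over all genes. Many lay near the limit: 118 of the higher and 162 of the lower genes passed it by under 0.05, while 183 on either side fell short by under 0.05. At the 1 FPKM limit, 164 genes were kept with a highest level between 1 and 1.1 FPKM and 209 were left out between 0.9 and 1 FPKM. A single fragment on 1 kb of transcript was worth about 0.0854 FPKM in WT and 0.139 FPKM in DoxTam, read from the lowest levels above 0, so DoxTam was shallower than WT. Genes listed at 0 numbered 6634 in DoxTam and 5333 in WT, but 3667 in Tam, which by the same reading was the shallowest (0.171 FPKM a fragment), so the count at 0 did not follow depth. The fold followed the GC content of the transcript, with a Spearman correlation of -0.61 across 11653 genes, which share the same 2 libraries. The median fold went from 0.35 in the group of genes lowest in GC (of 10 equal groups) to -0.34 in the highest, as the plot of fold by GC content shows. After this trend was removed, 251 genes (2.15%) were higher and 249 (2.14%) lower, and the fold after removal of the trend is given below as the GC-adjusted fold, beside genes past 1.5-fold that have a GC value.

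**Figure D1:**
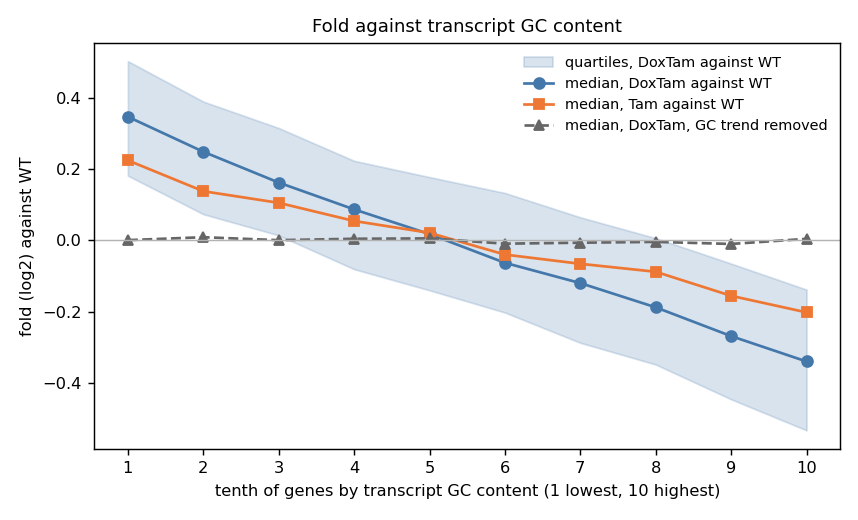
Median fold against WT (y axis, log2) for genes in 10 equal groups by the GC content of their longest coding transcript (x axis, from lowest to highest), for DoxTam (circles, band from the lower to the upper quartile of genes), Tam (squares) and DoxTam after removal of the trend (triangles). The DoxTam line went from 0.35 to -0.34, and the Tam line from 0.22 to -0.20.

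The deposited unit also carries an entry for a small RNA gene that moved the totals. *Mir6236* was listed at 456353 FPKM in WT, 337865 FPKM in Tam and 225659 FPKM in DoxTam, which was 43.1%, 35.3% and 27.4% of the summed FPKM. Its mature form in RefSeq (GRCm38.p6, chr9:110281353-110281371, plus strand) is shown because this entry sets the scale when libraries are brought to the same total. Whether the fragments counted came from the mature form was not tested. The seed, bases 2 to 8, is in capitals.
mmu-miR-6236: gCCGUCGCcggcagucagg
Without *Mir6236* the sums were 603492 FPKM in WT and 599099 FPKM in DoxTam. Rescaling to the same total moved the median fold up by 0.32 and turned the split of 510 higher and 716 lower genes into 2733 higher and 222 lower, whereas leaving small RNA genes out of the total gave 536 and 694. Folds are therefore given on the FPKM scale as deposited.

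The labels can be set beside *Pou5f1*, which encodes OCT4 (mm9 chr17:35642977-35647722). WT had 664 FPKM, Tam 529 FPKM and DoxTam 458 FPKM. DoxTam, where the transgene was to be induced, thus had the lowest level, a fold of -0.54 (GC-adjusted -0.27), short of 1.5-fold. Reads of the endogenous and the transgenic copies would both count here, and why the level was lowest in DoxTam was not tested. Tam, with the enhancer deletion and no induced transgene by its label, had a fold of -0.33, also short of 1.5-fold. In the paper's qPCR, *Oct4* was nearly lost in −/− cells given tamoxifen alone and came back to about the wild-type level with doxycycline. These libraries do not show that pattern. The libraries are named only as labelled, and neither the deletion nor the induction was checked by these values. The ESC markers fixed for this comparison, *Pou5f1*, *Sox2*, *Nanog*, *Esrrb*, *Klf4*, *Zfp42*, *Dppa5a*, *Tdgf1*, *Utf1* and *Fgf4*, were all present, from 83.2 FPKM to 633 FPKM in DoxTam and from 106 FPKM to 793 FPKM in WT. In bulk RNA, fewer cells of a type and less RNA per cell cannot be told apart.

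The nuclear genes of the mitochondrial ribosome were at the same levels in both libraries for nearly all members. All 83 proteins of this ribosome were measured, and 79 of them stayed within 1.5-fold, with a median fold of -0.04 beside 0.00 over all genes. The higher members were *Mrpl22* of the large subunit and *Mrps33* of the small subunit, and the lower ones were *Mrps26* of the small subunit and *Mrpl12*, which sits in the stalk of the large subunit. *Mrpl22* was at 30.6 FPKM in WT, 40.3 FPKM in Tam and 50.6 FPKM in DoxTam (fold 0.71, GC-adjusted 0.69). *Mrps33* was at 2.61 FPKM in WT, 2.78 FPKM in Tam and 5.88 FPKM in DoxTam (fold 0.93, GC-adjusted 0.71). *Mrps26* was at 56.8 FPKM, 36.0 FPKM and 30.7 FPKM in the same order (fold -0.87, GC-adjusted -0.91). *Mrpl12* was at 58.4 FPKM, 45.8 FPKM and 33.7 FPKM (fold -0.78), and its GC-adjusted fold of -0.57 lay inside the limit. Neither subunit moved as a whole: the median was -0.03 over the 50 large subunit members and -0.06 over the 33 small subunit members. Summed over the list, the levels were 2920 FPKM in WT, 2671 FPKM in Tam and 2761 FPKM in DoxTam.

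The factors that work on this ribosome were also measured. Of 33 measured, only *Fastkd2*, an RNA-binding protein needed for assembly of the large subunit, reached 1.5-fold, and the median was 0.01. *Fastkd2* was at 10.2 FPKM in WT, 11.3 FPKM in Tam and 17.9 FPKM in DoxTam, a fold of 0.75 that came to 0.48 after GC adjustment. The initiation factors *Mtif2* and *Mtif3* and the formyltransferase *Mtfmt*, which makes the starter tRNA, had folds of 0.01, 0.08 and 0.01. Among elongation factors, *Tufm* (EF-Tu) stood at 30.7 FPKM (WT) and 30.9 FPKM (DoxTam), *Gfm1* (EF-G) had a fold of -0.05, *Guf1* had 0.20 and *Taco1*, which helps translation of cytochrome oxidase subunit I, had 0.17. *Tsfm* (EF-Ts), which recharges EF-Tu, was the lowest of them, at 45.3 FPKM in WT, 29.0 FPKM in Tam and 33.6 FPKM in DoxTam (fold -0.42). The release factors *Mtrf1* and *Mtrf1l* had folds of 0.23 and 0.17, and the recycling factors *Mrrf* and *Gfm2* had 0.12 and -0.14.

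Factors of ribosome assembly, RNA handling and membrane insertion made up the other 21, with a median of -0.03. Below 0 were *Rbfa* (-0.51), *Noa1* (-0.40), *Eral1* (-0.33), *Mrm1* (-0.25), *Malsu1* (-0.24), *Mtg1* (-0.20), *Metap1d* (-0.17), *Mtg2* (-0.14), *Oxa1l* (-0.08), *Dhx30* (-0.08), *Rpusd4* (-0.03) and *Nsun4* (-0.02). *Rbfa*, a maturation factor of the small subunit, was at 78.6 FPKM in WT, 54.9 FPKM in Tam and 54.8 FPKM in DoxTam, so it was as low with tamoxifen alone. Above 0 stood *Slirp* (0.02), *Ddx28* (0.05), *Lrpprc* (0.09), *Pdf* (0.09), *Rmnd1* (0.09), *Gtpbp10* (0.14), *Tfb1m* (0.27), *Pnpt1* (0.54) and *Fastkd2*. *Lrpprc* and *Slirp* form the complex that stabilizes mitochondrial mRNAs, and *Pnpt1* is the phosphorylase that degrades RNA in mitochondria. *Slirp*, *Tfb1m*, *Mtif3*, *Mrrf*, *Gfm1*, *Gfm2*, *Mtg1* and *Oxa1l* share a locus with another gene in the tables. After GC adjustment no measured factor with a GC value reached 1.5-fold, and the range ran from -0.45 (*Malsu1*) to 0.48 (*Fastkd2*).

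**Figure D2:**
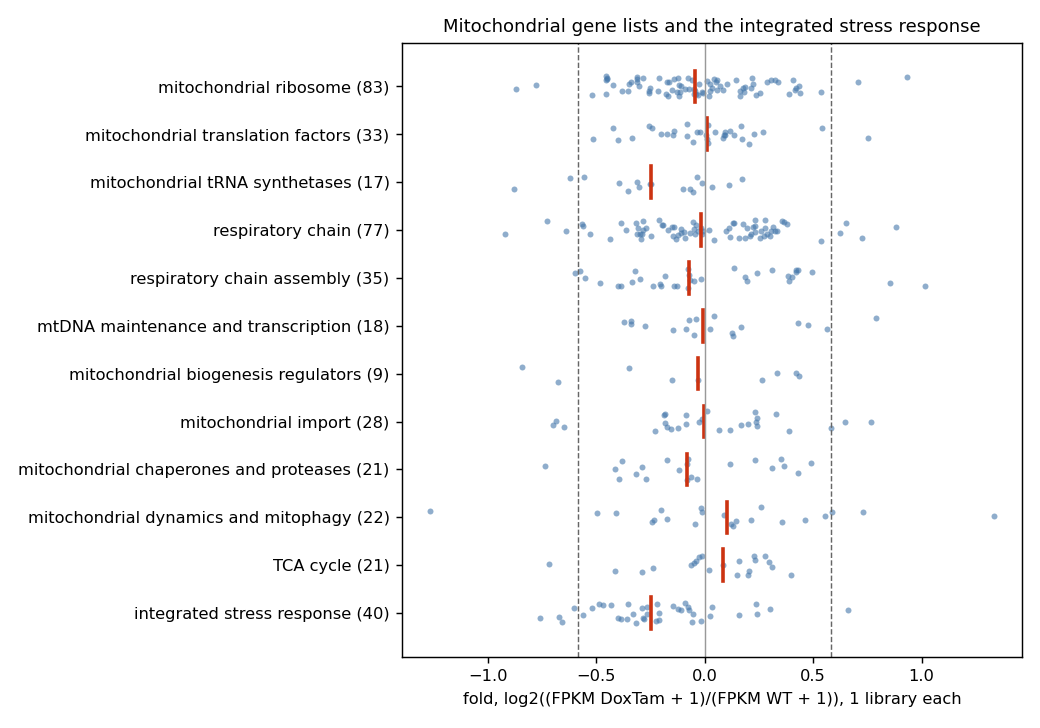
Fold of every measured member (points, x axis, log2, 1 library each) of the mitochondrial gene lists and of the integrated stress response, with the number of members in brackets, the median as a vertical bar and dashed lines at 1.5-fold. The medians of the mitochondrial lists lay between -0.24 (tRNA synthetases) and 0.10 (dynamics and mitophagy).

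The mitochondrial tRNA synthetases were the mitochondrial list with the lowest median. It stood at -0.24 over 17 members, with 14 below 0 and *Lars2* and *Vars2* past 1.5-fold. *Lars2*, which charges the leucine tRNA, was at 2461 FPKM in WT, 2131 FPKM in Tam and 1339 FPKM in DoxTam, a fold of -0.88 (GC-adjusted -0.84). Its level stood far above the next member, *Tars2*, at 42.1 FPKM in WT. Why *Lars2* is read so high was not tested, and its level and fold are uncertain. *Vars2*, for valine, was at 9.76 FPKM in WT, 7.80 FPKM in Tam and 6.01 FPKM in DoxTam (fold -0.62), and its GC-adjusted fold was -0.32. The highest member was *Rars2*, for arginine, at 0.17. After GC adjustment the list median was -0.15 and *Lars2* alone passed the limit. After rescaling to the same summed FPKM the list median was 0.11, beside 0.32 over all genes. The Tam library had a median of -0.21 over the same members and none past 1.5-fold.

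The RNAs made from mitochondrial DNA could not be read, since none of its 15 genes (for proteins and ribosomal RNAs) is listed under the symbols searched. Proteins, the products of mitochondrial translation, were not measured. The nuclear genes of the respiratory chain had a median of -0.01 over 77 members, with 4 higher and 3 lower beside 4.12% and 5.78% of all genes, and 2 and 1 after GC adjustment. *Ndufa2* of complex I was the lowest, at 73.5 FPKM in WT, 49.8 FPKM in Tam and 38.4 FPKM in DoxTam (fold -0.92, GC-adjusted -0.81), and it shares its locus with *Tmco6*. *Atp5e*, the epsilon subunit of ATP synthase, was at 155.9 FPKM, 108.6 FPKM and 93.8 FPKM (fold -0.73, GC-adjusted -0.58). *Ndufv3*, at the NADH-binding tip of complex I, had a fold of -0.64.
The higher members were *Usmg5* (0.88, GC-adjusted 0.61), a small protein of the ATP synthase dimer, *Uqcrb* (0.72, GC-adjusted 0.45) of complex III, *Ndufab1* (0.65, GC-adjusted 0.48), the acyl carrier protein of complex I, and *Cox7b* (0.63, GC-adjusted 0.34) of complex IV. *Uqcrb* was at 113.8 FPKM in WT, 177.7 FPKM in Tam and 188.5 FPKM in DoxTam, and *Cox7b* at 87.2 FPKM, 129.5 FPKM and 135.1 FPKM, so in both the treated libraries lay near each other and above WT. By complex the medians were 0.06 (complex I, 36 members), -0.05 (complex II, 4), -0.03 (complex III, 9), 0.15 (complex IV, 12) and -0.05 (ATP synthase, 16). None of the complexes had a median past 0.15 in either direction. Complex II had none of its 4 members past 1.5-fold, too few to set against the 4.12% and 5.78% of all genes.

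Assembly factors had a median of -0.07 over 35 members. The copper chaperone *Sco2* was the highest, at 0.504 FPKM in WT and 2.04 FPKM in DoxTam (fold 1.02, GC-adjusted 1.28), but with 2.03 FPKM in Tam and a locus shared with *Ncaph2* and *Tymp*. It passed the 1 FPKM filter only through DoxTam, and rests on about 4.53 fragments in WT and 11.3 in DoxTam. *Cox20*, which guides subunit II of complex IV, was at 25.1 FPKM in WT, 39.3 FPKM in Tam and 46.3 FPKM in DoxTam (fold 0.86, GC-adjusted 0.65), and *Cox14* was lower at -0.60 (GC-adjusted -0.44). Among the genes that copy and transcribe mitochondrial DNA, *Ssbp1*, the single-strand binding protein of its replication fork, was the only one of 18 past 1.5-fold, at 23.7 FPKM in WT, 28.2 FPKM in Tam and 41.6 FPKM in DoxTam (fold 0.79, GC-adjusted 0.48).

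Of 9 regulators of mitochondrial biogenesis 2 were lower, beside 5.78% of all genes, and none after GC adjustment. The nuclear receptor *Esrra* was at 10.3 FPKM in WT, 5.42 FPKM in Tam and 5.34 FPKM in DoxTam (fold -0.84, GC-adjusted -0.47), and the coactivator *Pprc1* was at 64.0 FPKM, 42.7 FPKM and 39.7 FPKM (fold -0.68, GC-adjusted -0.48). Both treated libraries lay close together for these genes, and both folds fell inside the limit after GC adjustment, at -0.47 and -0.48. *Gabpa*, a subunit of the factor NRF2, and the deacetylase *Sirt1* had folds of 0.43 and 0.42.

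Of 28 genes of the import machinery, *Timm13* (-0.70, GC-adjusted -0.41), *Tomm40* (-0.68, GC-adjusted -0.32), the pore of the outer membrane, and *Tomm6* (-0.65, GC-adjusted -0.55) were lower, and *Dnajc19* (0.77, GC-adjusted 0.43) and *Timm8a1* (0.65, GC-adjusted 0.59) were higher. Their median was 0.00, *Timm8a1* alone stayed past the limit after GC adjustment, and it rests on 1.51 FPKM in DoxTam. Chaperones and proteases had 1 of 21 past the limit: *Afg3l2*, a protease of the inner membrane that also matures a ribosomal protein, at 42.5 FPKM in WT, 34.9 FPKM in Tam and 25.2 FPKM in DoxTam (fold -0.73, GC-adjusted -0.66). The chaperones of the unfolded protein response of mitochondria had no member past 1.5-fold and a median of -0.08 over 7, with 5 below 0 and *Hspe1* and *Grpel2* above it at 0.43 and 0.49. Of 21 genes of the TCA cycle, *Mdh2*, the malate dehydrogenase of mitochondria, was lower (224.4 FPKM in WT, 153.7 FPKM in Tam, 135.9 FPKM in DoxTam, fold -0.72, GC-adjusted -0.54).

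The list of dynamics and mitophagy held both the largest positive and the largest negative fold of the mitochondrial lists. *Bnip3*, a mitophagy receptor induced by hypoxia, was at 17.4 FPKM in WT, 40.9 FPKM in Tam and 45.3 FPKM in DoxTam (fold 1.34, GC-adjusted 1.04). Its relative *Bnip3l* was at 19.9 FPKM, 26.3 FPKM and 33.7 FPKM (fold 0.73, GC-adjusted 0.44), and *Map1lc3b*, which coats autophagosomes, had a fold of 0.59. *Calcoco2*, a receptor of selective autophagy, was at 7.74 FPKM in WT, 25.6 FPKM in Tam and 2.64 FPKM in DoxTam (fold -1.26, GC-adjusted -1.28). It was thus on opposite sides of WT in the treated libraries, at about 147, 243 and 30.9 fragments in WT, Tam and DoxTam by the estimate of depth. Over all mitochondrial lists joined, 363 genes were measured, 15 were higher and 16 lower, or 4.13% and 4.41% beside 4.12% and 5.78% of all genes, with a median of -0.03. The share of higher genes is near that of all genes, and the share of lower genes below it. After GC adjustment 9 were higher and 7 lower.

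Most genes of the integrated stress response had a fold below 0 on the FPKM scale as deposited. Of 40 measured, 33 were below 0, and the median was -0.24 beside 0.00 over all genes. Past 1.5-fold, *Gdf15*, *Yars*, *Phgdh* and *Trib3* were lower and *Stc2* alone higher, beside 5.78% and 4.12% of all genes. After rescaling to the same summed FPKM the median was 0.10 beside 0.32 over all genes. Its sign thus depends on the scale, while it stayed below the median of all genes on both scales. After GC adjustment the median was -0.14, *Stc2* stayed past the limit and none of the 40 was lower past it. Over all genes 2.15% were then higher and 2.14% lower. The Tam library had a median of -0.32 with 8 members lower and 1 higher, so the low levels were also seen without doxycycline. The share of all genes past 1.5-fold in Tam was not counted.
*Atf4*, the transcription factor at the center of the response, was at 143.9 FPKM in WT, 151.0 FPKM in Tam and 170.5 FPKM in DoxTam (fold 0.24). Its partner *Cebpg* had the same fold of 0.24, and *Nupr1*, a stress-induced chromatin protein, had 0.30. *Ddit3* (CHOP), which ATF4 raises under strong stress, was at 19.7 FPKM, 17.2 FPKM and 13.1 FPKM (fold -0.56, locus shared with *Mars*). *Trib3*, which feeds back on ATF4, was at 16.9 FPKM, 10.2 FPKM and 10.8 FPKM (fold -0.60, GC-adjusted -0.32). *Gdf15*, the hormone that is a usual sign of mitochondrial stress, was at 4.89 FPKM in WT, 3.83 FPKM in Tam and 2.49 FPKM in DoxTam (fold -0.76, GC-adjusted -0.40), about 88.5 fragments against 27.7. Another such hormone, *Fgf21*, was below 1 FPKM.
Other transducers and targets were *Sesn2* (-0.52), *Ddit4* (-0.40), *Chac1* (-0.35), *Cebpb* (-0.33), *Atf5* (-0.31), *Ppp1r15a* (-0.07), the phosphatase subunit that ends the response, *Atf3* (-0.05) and *Eif4ebp1* (0.02). *Stc2*, a secreted glycoprotein, was at 5.02 FPKM in WT, 8.58 FPKM in Tam and 8.52 FPKM in DoxTam (fold 0.66, GC-adjusted 0.70).

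**Figure D3:**
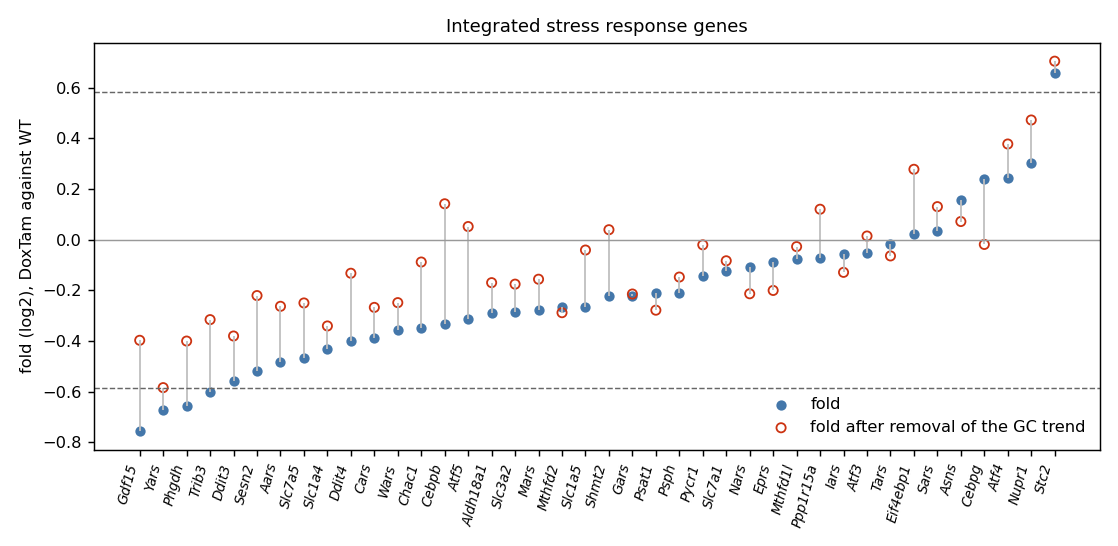
Fold of DoxTam against WT (y axis, log2, 1 library each) for the 40 measured genes of the integrated stress response (x axis, in order of fold), as measured (filled) and after removal of the GC trend (open), with dashed lines at 1.5-fold. From *Gdf15* at -0.76 to *Stc2* at 0.66, 33 of the filled points lie below 0.

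In amino acid synthesis and transport, 13 of 14 members had a fold below 0. The median was -0.24, and -0.16 after GC adjustment, beside 0.00 over all genes. *Phgdh*, the first enzyme of serine synthesis, was at 37.5 FPKM in WT, 18.5 FPKM in Tam and 23.5 FPKM in DoxTam (fold -0.66, GC-adjusted -0.40). *Psat1* and *Psph*, which complete that path, both had folds of -0.21, and *Shmt2* and *Mthfd2*, the folate enzymes of mitochondria, had -0.22 and -0.27. *Mthfd2* was at 45.6 FPKM in WT, 27.1 FPKM in Tam and 37.7 FPKM in DoxTam, so DoxTam lay between the others. The transporters *Slc7a5* (-0.47), *Slc1a4* (-0.43), *Slc3a2* (-0.29), *Slc1a5* (-0.27) and *Slc7a1* (-0.12) and the enzymes *Aldh18a1* (-0.29), *Pycr1* (-0.14) and *Mthfd1l* (-0.08) were also below 0. *Asns*, the asparagine synthetase, was the exception, at 166.5 FPKM in WT, 222.3 FPKM in Tam and 185.8 FPKM in DoxTam (fold 0.16).
The cytosolic tRNA synthetases were below 0 in 10 of 11 cases, with a median of -0.22, and -0.21 after GC adjustment. *Yars*, for tyrosine, was at 95.2 FPKM in WT, 58.9 FPKM in Tam and 59.3 FPKM in DoxTam (fold -0.67, GC-adjusted -0.58). *Aars* (-0.48), *Cars* (-0.39), *Wars* (-0.36), *Mars* (-0.28), *Gars* (-0.22), *Nars* (-0.11), *Eprs* (-0.09), *Iars* (-0.06) and *Tars* (-0.02) followed, and *Sars* was at 0.03.

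The element through which ATF4 acts on amino acid genes, TTGCATCA, was searched on both strands of the RefSeq promoters (GRCm38.p6, 250 bases before to 50 after the start of the gene). It was in 9 of the 34 promoters of measured stress response genes that the table holds, or 26.5%, beside 0.583% of the promoters of 9773 measured genes. It was in 0.840% of promoters of higher and 1.18% of promoters of lower genes (3 and 6 genes). Windows from 8 of these promoters are shown because ATF4 is known to act on such genes through this element, which stands in capitals, each window on the strand that holds it.
Atf3 (chr1:191183425-191183454, minus): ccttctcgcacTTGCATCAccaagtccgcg
Chac1 (chr2:119351038-119351067, plus): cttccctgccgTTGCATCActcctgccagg
Iars (chr13:49682126-49682155, plus): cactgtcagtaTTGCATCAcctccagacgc
Nupr1 (chr7:126625562-126625591, minus): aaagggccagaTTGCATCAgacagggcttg
Pycr1 (chr11:120643833-120643862, plus): agccttgtgcaTTGCATCAtacacagggca
Slc1a4 (chr11:20332699-20332728, minus): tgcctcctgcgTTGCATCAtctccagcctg
Tars (chr15:11399655-11399684, minus): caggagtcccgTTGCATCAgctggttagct
Yars (chr4:129189895-129189924, minus): gtcccgtcgggTTGCATCAgctgagctcgt
The 9 genes had a median fold of -0.14 and the other 25 of -0.22. Of the 9, *Yars* was lower past 1.5-fold and none was higher. A match describes letters only and says nothing of binding.

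Glycolysis and the hypoxia response had a median of 0.10 over 32 members, with *Bnip3* higher and *Ldhb*, the lactate dehydrogenase that favors pyruvate, lower (108.1 FPKM in WT, 80.0 FPKM in Tam, 59.9 FPKM in DoxTam, fold -0.84, GC-adjusted -0.75). *Hk1*, the first enzyme of glycolysis, had a fold of -0.52 and the hypoxia gene *Ndrg1* of 0.54. In Tam the same list had a median of 0.27. Antioxidant genes had a median of 0.23 over 21 members, with 15 above 0 but none higher past 1.5-fold. *Gclc*, of glutathione synthesis, was at 17.3 FPKM in WT, 24.7 FPKM in Tam and 26.3 FPKM in DoxTam (fold 0.58), and *Nqo1*, a quinone reductase, at 8.16 FPKM, 18.4 FPKM and 12.7 FPKM (fold 0.58), both just short of the limit. The thioredoxin pair of mitochondria ran the other way, with *Txn2* at 46.0 FPKM in WT, 44.5 FPKM in Tam and 27.9 FPKM in DoxTam (fold -0.70, GC-adjusted -0.59). Its reductase *Txnrd2* was at 2.38 FPKM, 2.22 FPKM and 1.13 FPKM (fold -0.66, GC-adjusted -0.47), with a locus shared with other genes.

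The core and naive pluripotency genes had a median near that of all genes. None of 39 was higher past 1.5-fold and 3 were lower, beside 4.12% and 5.78% of all genes, and the median was -0.06. After GC adjustment the median was -0.05, none was higher and 4 were lower, beside 2.15% and 2.14% of all genes. Of these 4, 1 was a naive member, at -0.75. *Sox2* was at 288.9 FPKM in WT, 267.6 FPKM in Tam and 267.7 FPKM in DoxTam (fold -0.11), *Nanog* at 186.3 FPKM, 227.7 FPKM and 201.6 FPKM (fold 0.11) and *Klf4* at 175.0 FPKM, 160.3 FPKM and 150.5 FPKM (fold -0.22). *Zfp42*, a marker of the naive state, had a fold of -0.15. *Utf1*, a chromatin factor bound by OCT4 and SOX2, was the lowest, at 180.7 FPKM in WT, 90.6 FPKM in Tam and 83.2 FPKM in DoxTam (fold -1.11, GC-adjusted -0.70). The receptor *Kit* (-0.69, GC-adjusted -0.76) and *Tfap2c* (-0.68, GC-adjusted -0.60), an AP-2 factor of naive cells, were the other lower members. *Tdgf1*, the Nodal co-receptor, was the highest, at 428.6 FPKM in WT, 457.0 FPKM in Tam and 599.7 FPKM in DoxTam (fold 0.48). Of the loci on chromosome 11 that the study tied to the enhancer, *Llgl2*, a polarity gene, was at 84.8 FPKM, 61.6 FPKM and 55.6 FPKM (fold -0.60, GC-adjusted -0.25), and *Grb7*, an adaptor of receptor tyrosine kinases, at 20.1 FPKM, 15.0 FPKM and 16.7 FPKM (fold -0.25).

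Among the Myc family, *Mycn*, the form with the best known role beside *Myc* in ESC growth (mm9 chr12:12942899-12948642), had the lowest fold of the network. It was at 11.5 FPKM in WT, 9.61 FPKM in Tam and 3.76 FPKM in DoxTam, a fold of -1.39 (GC-adjusted -1.23) that rests on about 358 and 72.4 fragments. The other 11 members of the network lay within 1.5-fold, from *Mnt* at -0.52 to *Mga* at 0.34. In the Wnt pathway *Tcf7l1*, a repressor of pluripotency genes that Wnt relieves, was at 15.1 FPKM in WT, 12.8 FPKM in Tam and 7.26 FPKM in DoxTam (fold -0.96, GC-adjusted -0.65). *Bcl9l* (-0.67, GC-adjusted -0.30) and *Fzd2* (-0.59, GC-adjusted -0.36) were also lower, the latter at 1.26 FPKM in WT, and *Csnk1a1*, a kinase that marks beta-catenin for decay, was higher at 118.2 FPKM, 144.3 FPKM and 199.8 FPKM (fold 0.75, GC-adjusted 0.51). The list median was -0.16 over 22 members, and -0.02 after GC adjustment.

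In Nodal signaling the members higher past 1.5-fold were feedback inhibitors. NODAL and activin act through type I and type II receptors on SMAD2 and SMAD3, which with SMAD4 and FOXH1 raise *Lefty1* and *Lefty2*, secreted inhibitors of NODAL itself. *Lefty2* (mm9 chr1:182823250-182829233) was at 5.53 FPKM in WT, 7.28 FPKM in Tam and 13.7 FPKM in DoxTam, a fold of 1.17 (GC-adjusted 1.22) from about 160 and 244 fragments. Its neighbor *Lefty1* (chr1:182865170-182868532) was at 4.37 FPKM, 4.72 FPKM and 8.005 FPKM, a fold of 0.75 (GC-adjusted 1.04). In both genes DoxTam was the highest of the libraries, and Tam lay nearer to WT.
In the ligand group *Tdgf1*, the co-receptor, was also highest in DoxTam, at 428.6 FPKM in WT, 457.0 FPKM in Tam and 599.7 FPKM in DoxTam. Its fold of 0.48 was short of 1.5-fold. The other measured members of the group, *Nodal*, *Gdf3*, *Gdf1* and *Inhbb*, did not share this order. *Nodal* was at 49.6 FPKM in WT, 55.4 FPKM in Tam and 42.6 FPKM in DoxTam (fold -0.21), *Gdf3* at 10.9 FPKM, 21.7 FPKM and 13.7 FPKM (fold 0.31), and *Gdf1* had a fold of -0.27. *Inhbb*, a chain of activin B, was lower at 24.2 FPKM, 8.24 FPKM and 12.3 FPKM (fold -0.92), though inside the limit after GC adjustment (-0.57).
Of the receptors, *Acvr2b* was lower (fold -0.65, GC-adjusted -0.28), *Acvr2a* was at 0.54 and *Acvr1b* at 0.02. The transducers *Smad2* (0.34), *Foxh1* (0.25), *Smad4* (0.20) and *Smad3* (-0.02) lay within the limit, as did the other feedback genes *Skil* (0.53), *Ski* (-0.27) and *Smad7*, which was at 86.0 FPKM, 72.2 FPKM and 58.0 FPKM (fold -0.56). Over 17 measured members the median was 0.20, with 2 higher and 2 lower, beside 4.12% and 5.78% of all genes. After GC adjustment 2 were higher and none lower, beside 2.15% and 2.14% of all genes. *Cer1*, *Inhba* and *Acvr1c* were below 1 FPKM.

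**Figure D4:**
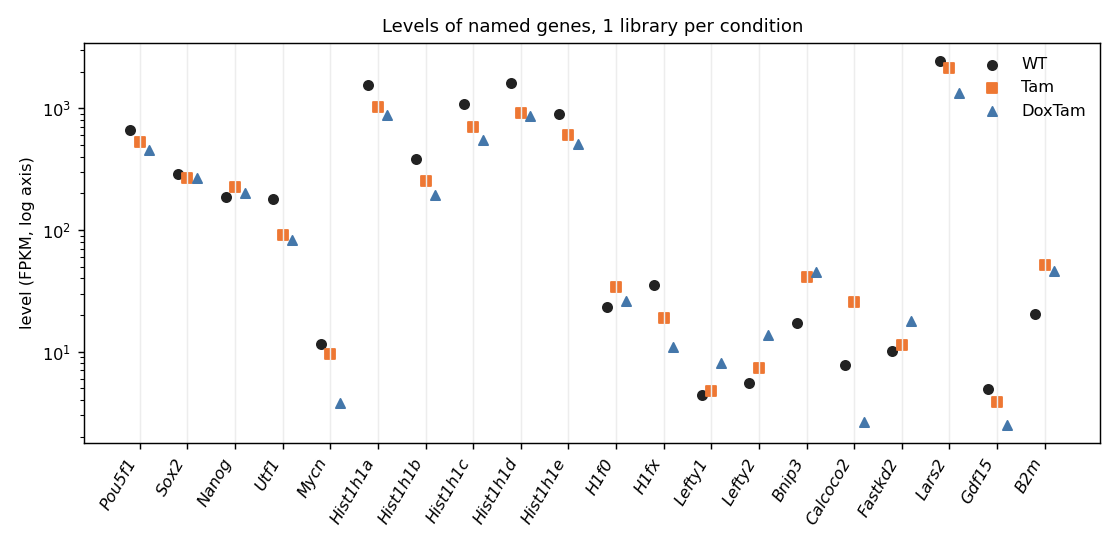
Level of named genes (x axis) in FPKM (y axis, log scale) in WT (circles), Tam (squares) and DoxTam (triangles), 1 library each. *Lefty1* and *Lefty2* were highest in DoxTam, *Mycn* and *Calcoco2* lowest in DoxTam, and the linker histone genes *Hist1h1a* to *Hist1h1e* and *H1fx* highest in WT.

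Targets of FGF and ERK signaling, the path that leads ESCs out of pluripotency, had a median of -0.04 over 21 members. The immediate early genes *Egr1* (20.9 FPKM in WT, 8.37 FPKM in Tam, 9.82 FPKM in DoxTam, fold -1.02, GC-adjusted -0.90) and *Ier2* (95.45 FPKM, 50.8 FPKM and 47.2 FPKM, fold -1.001, GC-adjusted -0.65) were lower. *Klf6* (0.71, GC-adjusted 0.44) and the feedback inhibitor *Spry1* (6.82 FPKM, 7.64 FPKM and 11.2 FPKM, fold 0.64, GC-adjusted 0.88) were higher.
Markers of other lineages were measured as a check on the cell type. Of 16 trophectoderm genes 8 were measured, and *Cdx2*, the defining factor of that lineage, was at 0.639 FPKM in WT, 2.82 FPKM in Tam and 0.128 FPKM in DoxTam. *Eomes*, a T-box factor of trophectoderm and primitive streak, was at 2.91 FPKM in WT, 4.08 FPKM in Tam and 5.43 FPKM in DoxTam (fold 0.72, GC-adjusted 0.84), and *Esx1* was lower from 1.08 FPKM in WT (fold -0.72, GC-adjusted -0.57). In the primitive streak list 4 of 15 genes were measured, with *Snai1* (0.520 FPKM in WT, 1.72 FPKM in Tam, 1.30 FPKM in DoxTam, fold 0.60, GC-adjusted 0.92) and *Eomes* higher, beside 4.12% of all genes. *Snai1* passed the 1 FPKM filter only through DoxTam, so it could not have been called lower. It rests on about 9.88 fragments in WT and 15.2 in DoxTam. Among primitive endoderm genes 7 of 17 were measured, all with a fold below 0 before and after GC adjustment (medians -0.35 and -0.17). *Sparc*, a secreted matrix protein, was at 96.8 FPKM in WT, 123.7 FPKM in Tam and 91.1 FPKM in DoxTam, while the defining factors *Gata6*, *Sox17* and *Sox7* were below 1 FPKM. *Col4a1* and *Col4a2*, the chains of basement membrane collagen, were at 11.9 FPKM and 5.71 FPKM in WT, 10.2 FPKM and 5.295 FPKM in Tam, and 4.62 FPKM and 2.80 FPKM in DoxTam (folds -1.19 and -0.82, GC-adjusted -0.92 and -0.48), so Tam lay nearer to WT than to DoxTam.
No gene of the primed epiblast or neuroectoderm lists passed 1.5-fold (11 and 5 measured), and *Tubb3*, a neuronal tubulin, was at 24.8 FPKM, 15.3 FPKM and 20.7 FPKM. Of fibroblast markers 4 of 13 were measured, *Thy1* was lower (-0.60), and the collagens *Col1a1*, *Col1a2* and *Col3a1* were below 1 FPKM. In the 2-cell-like list *Zscan4e* (0.89, GC-adjusted 0.68) and *Eif1a* (0.80, GC-adjusted 0.45) were higher among 11 members, with a median of 0.27 that came to 0.06 after GC adjustment, and *Zscan4d* had a fold of -0.14.

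**Figure D5:**
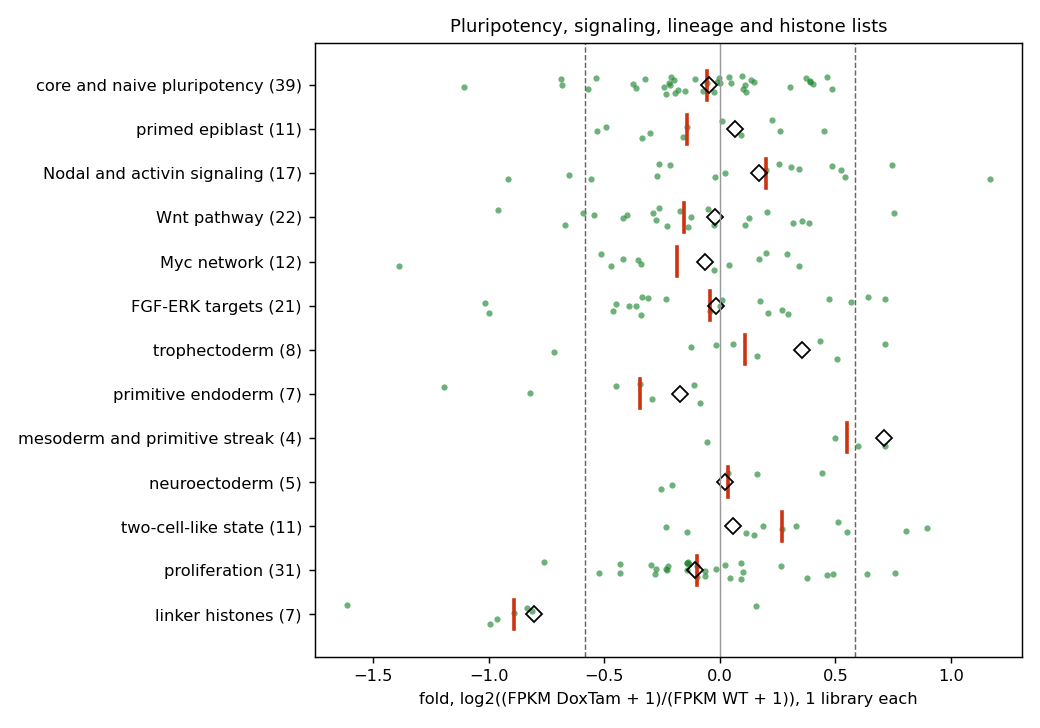
Fold of every measured member (points, x axis, log2, 1 library each) of the pluripotency, signaling, lineage, proliferation and linker histone lists, with the number of members in brackets. Vertical bars are medians, diamonds are medians after removal of the GC trend, and dashed lines mark 1.5-fold. The linker histones had the lowest median, -0.89.

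The linker histones had the lowest median of all lists. H1 proteins sit on the DNA between nucleosomes and compact it, and most of their genes are transcribed in S phase. Of 7 measured genes 6 were lower in DoxTam, with a median of -0.89, beside 5.78% of all genes lower. After GC adjustment 5 of the 6 with a GC value were lower, with a median of -0.80. *Hist1h1d* was at 1611 FPKM in WT, 923 FPKM in Tam and 869 FPKM in DoxTam (fold -0.89, GC-adjusted -1.17). *Hist1h1a* was at 1556 FPKM, 1026 FPKM and 886 FPKM (fold -0.81, GC-adjusted -0.67), and *Hist1h1c* at 1080 FPKM, 704.5 FPKM and 553 FPKM (fold -0.96, GC-adjusted -0.80). In each of these DoxTam was the lowest, with Tam nearer to it than WT was.
*Hist1h1e* was at 906 FPKM, 607 FPKM and 508 FPKM (fold -0.83), and its GC-adjusted fold of -0.51 lay inside the limit. *Hist1h1b* was at 386 FPKM, 254 FPKM and 193 FPKM (fold -0.99, GC-adjusted -0.81). The GC value of *Hist1h1d* came from a transcript of 3821 bases at 42.3% GC, beside 743 bases at 55.6% for *Hist1h1b*. The GC-adjusted fold of *Hist1h1d* depends on that choice of transcript. *H1fx*, made outside S phase, was at 35.7 FPKM, 18.9 FPKM and 10.96 FPKM (fold -1.62, GC-adjusted -1.10). *H1f0*, the form of resting and differentiated cells, was the exception, at 23.2 FPKM, 34.0 FPKM and 26.02 FPKM (fold 0.16). Summed over the list, the levels were 5598 FPKM in WT, 3567 FPKM in Tam and 3046 FPKM in DoxTam, and the Tam library had a median of -0.60 with 5 members lower.
The core histones, looked at after these values were seen, had 5 of 51 lower and none higher, beside 5.78% and 4.12% of all genes. Their median was -0.12, and 0.09 after GC adjustment.

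The promoters of the S-phase H1 genes are shown because they hold elements in common. Whether these elements bear on the folds was not tested. The sequences cover the 130 bases before the start of each gene (RefSeq, GRCm38.p6), with AAACACA (the H1 box), CCAAT and TATAAA in capitals where they lie on the strand of the gene. The H1 box and CCAAT were added after the values were seen.
Hist1h1a (chr13:23763538-23763667, plus): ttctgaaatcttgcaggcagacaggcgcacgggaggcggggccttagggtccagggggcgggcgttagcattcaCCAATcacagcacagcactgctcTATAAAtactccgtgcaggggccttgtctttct
Hist1h1b (chr13:21780626-21780755, minus): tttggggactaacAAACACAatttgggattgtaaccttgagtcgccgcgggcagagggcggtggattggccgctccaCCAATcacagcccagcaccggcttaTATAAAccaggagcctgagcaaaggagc
Hist1h1c (chr13:23738677-23738806, plus): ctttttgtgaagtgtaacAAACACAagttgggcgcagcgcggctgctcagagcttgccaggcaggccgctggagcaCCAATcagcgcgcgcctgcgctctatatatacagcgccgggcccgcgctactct
Hist1h1d (chr13:23554902-23555031, plus): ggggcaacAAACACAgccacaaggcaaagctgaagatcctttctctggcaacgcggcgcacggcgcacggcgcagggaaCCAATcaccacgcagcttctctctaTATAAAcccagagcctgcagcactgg
Hist1h1e (chr13:23622559-23622688, minus): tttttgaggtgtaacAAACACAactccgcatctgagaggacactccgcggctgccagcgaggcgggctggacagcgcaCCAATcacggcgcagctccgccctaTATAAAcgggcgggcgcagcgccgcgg
CCAAT lay 51 to 56 bases before the start in all 5, AAACACA 112 to 122 bases before it in all but *Hist1h1a*, and TATAAA 26 to 33 bases before it in all but *Hist1h1c*. Searched on both strands of the whole promoters, AAACACA was in 3.92%, CCAAT in 39.3% and TATAAA in 6.82% of the 9773 measured genes. Among lower genes the shares were 4.92%, 39.2% and 8.66% in the same order. None of these elements was found in the promoters of *H1fx*, which had the lowest fold of the list, and *H1f0*.

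Proliferation genes had a median of -0.10 over 31 members. *Mki67* was at 74.4 FPKM in WT, 70.8 FPKM in Tam and 69.4 FPKM in DoxTam (fold -0.10). *Cenpf*, a kinetochore protein of mitosis, was lower at 33.9 FPKM, 33.5 FPKM and 19.6 FPKM (fold -0.76, GC-adjusted -1.01), whereas *Ccne2* (0.76, GC-adjusted 0.33), a cyclin of S-phase entry, and *Pcna*, the replication clamp (87.8 FPKM, 109.0 FPKM and 136.8 FPKM, fold 0.63, GC-adjusted 0.46), were higher. The p53 targets had 2 higher and 2 lower of 19, beside 4.12% and 5.78% of all genes, and none of the 18 with a GC value past the limit after adjustment, with *Trp53inp1* at 60.6 FPKM, 128.5 FPKM and 112.2 FPKM (fold 0.88, GC-adjusted 0.50), *Eda2r* at 0.63 (GC-adjusted 0.31) and *Bbc3* (PUMA) at -0.64 (GC-adjusted -0.21). Cholesterol synthesis genes had *Nsdhl* (0.65, GC-adjusted 0.49) and *Cyp51* (0.64, GC-adjusted 0.50) higher among 23.

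The genes at the ends of the ranking were in part gene models that share reads. *Rpl26*, a protein of the cytosolic ribosome, had the highest fold, from 0.00456 FPKM in WT to 17.8 FPKM in DoxTam (fold 4.22, GC-adjusted 4.45), but the model *Gm15772* at the same locus was at 682 FPKM and 859 FPKM, and the fold of their sum was 0.36. The entry for *Rps27* and its copy *Rps27rt* went from 324.5 FPKM to 1038 FPKM (fold 1.67) while *Rps27rt* alone went from 1046 FPKM to 585 FPKM, and their sum had a fold of 0.24. The joint entry of *Rpl34* and *Rpl34-ps1* was the lowest named gene (22.9 FPKM to 6.65 FPKM, fold -1.64), and with *Rpl34-ps1* the sum had a fold of -0.16. *Sap25* (fold 2.28, GC-adjusted 2.57) came to 0.04 when summed with *Lrch4*, and *Rbm14-rbm4*, a read-through of its neighbors, from -1.53 to -0.60 when summed with them. *Pet117*, of complex IV assembly, was at 26.2 FPKM and 8.005 FPKM (fold -1.59), and at -0.97 when summed with *Csrp2bp*. Levels of all these single entries are uncertain.
Over the cytosolic ribosome, 8 of 82 members were higher and 1 lower, beside 4.12% and 5.78% of all genes, with a median of 0.08. These counts hold the *Rpl26*, *Rps27* and *Rpl34* entries, which lay inside the limit when summed with their copies. *Rpl30* was at 187.1 FPKM in WT, 345.5 FPKM in Tam and 410.8 FPKM in DoxTam (fold 1.13, GC-adjusted 1.31), and the pseudogene model at its locus, *Gm12191*, added less than 0.01 FPKM. *Rpl23* (0.72, GC-adjusted 0.58), *Rpl35a* (0.70, GC-adjusted 0.61) and *Rpl32* (0.67, GC-adjusted 0.69) were also higher.
Of other named genes at the top, *Lgals3* (galectin-3) was at 16.4 FPKM, 23.9 FPKM and 39.98 FPKM (fold 1.23, GC-adjusted 1.40), *Ptpla* at 2.19 FPKM, 3.28 FPKM and 5.72 FPKM (fold 1.08, GC-adjusted 1.13), *Higd2a*, an assembly factor of respiratory supercomplexes, at 38.6 FPKM, 71.8 FPKM and 78.3 FPKM (fold 1.00, GC-adjusted 1.11), and *Smim4*, also a small protein of mitochondria, at 3.66 FPKM, 5.38 FPKM and 8.20 FPKM (fold 0.98, GC-adjusted 1.09). *Ndufa4l2*, a hypoxia-induced relative of a complex IV subunit, was at 6.84 FPKM, 17.9 FPKM and 14.0 FPKM (fold 0.94, GC-adjusted 1.25), but it shares its locus with *Shmt2*, and their sum had a fold of -0.12. *Gt(ROSA)26Sor* (1.17) shares its locus with *Thumpd3*, and *Rps19-ps3* (1.25) is a pseudogene.
At the bottom were *Rbm4b*, a splicing factor (82.3 FPKM, 48.2 FPKM and 30.9 FPKM, fold -1.38, GC-adjusted -1.36), *Phospho1* (-1.51, GC-adjusted -1.16) and *Abhd11os* (-1.49). After GC adjustment they were joined by *Zfp931* (-1.17), *Xrcc4*, of DNA end joining (-1.14), and *Fabp5*, a fatty acid carrier (-1.07).

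The interferon and antigen presentation list had 3 of 12 higher (2 after GC adjustment), beside 4.12% of all genes, and none lower. *Ifit1*, *Isg15* and *Irf7* were below 1 FPKM in WT and DoxTam. *B2m*, the light chain of MHC class I, was at 20.3 FPKM in WT, 51.4 FPKM in Tam and 45.9 FPKM in DoxTam (fold 1.14, GC-adjusted 0.82), and *Ddx58* (0.66, GC-adjusted 0.53) and *Ifitm2* (0.61, GC-adjusted 0.76) were the others. Of imprinted genes, *Airn* (0.360 FPKM in WT, 2.30 FPKM in DoxTam, fold 1.28), which overlaps *Igf2r*, and *Impact* (0.63, GC-adjusted 0.33) were higher among 22. *Airn* passed the 1 FPKM filter only through DoxTam. By chromosome the median fold ran from -0.10 on chromosome 7 to 0.14 on chromosome X, and after removal of the GC trend from -0.03 on chromosome 5 to 0.03 on chromosome 14. Of the polarity and Hippo genes, *Lats2*, a kinase of the Hippo pathway, was higher at 1.53 FPKM, 5.66 FPKM and 3.28 FPKM (fold 0.76, GC-adjusted 0.82), and *Scrib*, a polarity scaffold, lower (-0.63, GC-adjusted -0.27).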

How the data were processed

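RNA-seq of total RNA (TruSeq stranded kit) was analysed in E14 mouse ESCs, with 1 library per condition, grouped by the submitters' labels. The authors deposited 2 tables, each with the FPKM of a treated library and of WT per gene, made with TopHat and Bowtie (versions not given) and Cufflinks 2.0.0 on mm9 by the submitters' processing notes. The tables also hold the authors' log2 ratio, test statistic, p-value, q-value and mark of significance, which were not used. No counts were used. Depth was read as the most frequent lowest step of FPKM times transcript length. WT differed by over 1% between the tables for 2 genes, and 27 gene names turned into dates in the DoxTam table were restored by row and locus.

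FPKM values were compared as deposited, as log2 of FPKM + 1, for genes at 1 FPKM or more in WT or DoxTam, and counted at 1.5-fold. GC content came from the longest coding transcript in GENCODE vM1 (same build), and its trend was removed by lowess (span 0.2, statsmodels 0.14.6). The steps were tested on simulated data. The comparison, the gene lists and the named genes (markers of the study, the 10 highest and 10 lowest genes at 5 FPKM or more before and after GC removal without unnamed models and small RNA genes, members past 1.5-fold or at the ends of each list, and all translation factors, stress response and Nodal genes) were chosen with earlier results of these data known. Members not singled out are given as counts. A shared locus means that the tables list another gene under the same mm9 interval. It is not marked at every gene. *B2m*, *Phospho1*, *Abhd11os*, *Usmg5*, *Dnajc19*, *Timm13*, *Tomm6*, *Esrra*, *Gabpa* and *Ccne2* are among those that also share a locus. Promoter windows were read from RefSeq (GRCm38.p6), of which 9773 matched measured genes, and motifs were searched on both strands. The 10-letter NRF1 element was searched too. Alternatives were the pseudocount, the filter, the scaling, centring, the GC trend, small RNA genes, status OK and 2-fold. Some genes that these rules take, and a promoter window, are not reported here.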

Additional observations from a re-analysis of the deposited data

Results flagged for a closer look

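*Calcoco2* was the only named gene past 1.5-fold in both treated libraries and on opposite sides of WT, with a fold of -1.26 in DoxTam and 1.61 in Tam, from 7.74 FPKM in WT, 25.6 FPKM in Tam and 2.64 FPKM in DoxTam. The difference was not tested, since there is 1 library per condition. With a level of 5 FPKM or more in any library, 18 genes ran in opposite directions past 1.5-fold, of which 15 were small RNA genes and 2 were unnamed models.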

How the results depend on the processing

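The counts of 510 higher and 716 lower genes stayed within 1.5 times under no filter, a filter of 5 FPKM, centring on the median fold, rescaling without small RNA genes, leaving these genes out and status OK. They came to 857 higher and 1145 lower with a pseudocount of 0.1 FPKM, 176 and 262 with 5 FPKM, 2733 and 222 after rescaling to the same summed FPKM, 251 and 249 with the GC trend removed, and 88 and 129 at 2-fold. The rise of higher genes under rescaling follows from a shift of the median by 0.32. No named gene past 1.5-fold changed direction under any of these alternatives. With the GC trend removed, 43 of 202 named folds were no longer past 1.5-fold and 2 newly were, and 13 of 37 list medians moved by over 0.1. All 37 list medians moved up by over 0.1 under rescaling, and 19 of them turned from below 0 to above 0, among them the integrated stress response (0.10), mitochondrial tRNA synthetases (0.11), mitochondrial ribosome (0.31), respiratory chain (0.34), pluripotency (0.30), Wnt (0.15) and Myc (0.13). The median over all genes was then 0.32, so a list median above 0 was not by that alone above all genes. No paired analysis was possible because each condition has 1 library, and for the same reason no replicate could be left out. Depth limits genes near 1 FPKM, where 1 kb of transcript held about 11.7 fragments in WT and 7.21 in DoxTam.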

Other observations

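Small RNA genes were the least stable class between the libraries. Of 146 measured, 55 were higher and 62 lower past 1.5-fold, or 80.1%, while among other genes the share past 1.5-fold in either direction was 10.2% at 1 to 5 FPKM, 8.61% at 5 to 20 FPKM, 8.33% at 20 to 100 FPKM and 10.2% above. Among receptor tyrosine kinases and GRB7 partners *Kit* was the only member past 1.5-fold of 15, and *Erbb3*, a partner receptor of the ERBB family, had the highest fold at 0.52. Of 14 housekeeping genes *B2m* alone passed the limit, with *Tbp* at 0.52 and *Gusb* at -0.20. The X-linked RNAs *Xist* and *Tsix*, which overlap, were at 6.86 FPKM and 7.99 FPKM in WT and at 9.75 FPKM and 9.91 FPKM in DoxTam.

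Shares of promoters with other elements are given for higher, lower and all measured genes in that order. The octamer ATGCAAAT was in 1.40%, 2.56% and 1.45% of promoters (5, 13 and 142 genes), the E-box CACGTG in 11.8%, 8.86% and 10.6%, the NRF1 element in 1.68%, 1.57% and 2.19%, the ETS element CCGGAAGT in 6.72%, 5.31% and 8.71%, AP-1 (TGAGTCA or TGACTCA) in 3.64%, 2.56% and 3.20%, and TATAAA in 9.80%, 8.66% and 6.82%. After GC adjustment the octamer was in 1.05% of higher and 3.21% of lower genes (2 and 6 genes) and the ETS element in 4.74% and 4.28%. These are counts of letters and were not tested.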
